A study of Mus musculus with 2 samples.

Results

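Conventional CD4 T cells were examined in single-cell RNA sequencing of optic nerves from *Nf1*-OPG mice, a genetically engineered model of the low-grade optic glioma seen in neurofibromatosis type 1. There were 2 libraries, C-ON and FMC_new, and both carried the genotype label NF1-OPG. The label of C-ON contains the word control and that of FMC_new the words FMC new, whose meaning is not given, so the libraries were treated as 2 samples of 1 condition. A cell was counted as a member when it passed the limits of the study (500 to 5000 genes, 500 to 20000 UMIs and at most 5% mitochondrial UMIs), held at least 2 UMIs of the CD3 genes *Cd3d*, *Cd3e* and *Cd3g* in sum and at least 1 UMI of *Cd4* or *Cd40lg*, lacked *Foxp3*, *Cd8a* and *Cd8b1*, and held at most 1 UMI of *Csf1r* and *Lyz2*. A UMI is 1 counted RNA molecule. This rule gave 1160 members of 25652 cells in all, with 266 of 8834 cells in C-ON (3.01%, exact Clopper-Pearson 95% interval 2.66 to 3.39) and 894 of 16818 cells in FMC_new (5.32%, 4.98 to 5.67). All intervals given here cover counting error only. According to the labels, nerves of 10 mice aged 12 weeks were pooled for a cell suspension, and according to the methods of the study the mice carry 1 germline mutant and 1 floxed *Nf1* allele with a Cre driven by the GFAP promoter, so T cells keep 1 intact *Nf1* copy. Because the animals were pooled, no value can be assigned to a single mouse.

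Conventional CD4 T cells recognise peptides on MHC class II molecules and steer other immune cells, chiefly through cytokines and the CD40 ligand encoded by *Cd40lg*. Textbook subsets are defined by a transcription factor and its cytokines: Tbx21 and interferon gamma for type 1, Gata3 with interleukins 4, 5 and 13 for type 2, and Bcl6 with Cxcr5 and interleukin 21 for follicular helper cells. In *Nf1* optic glioma, the study describes CD8 T cells as a source of the chemokine Ccl4, which acts on tumor-associated monocytes.

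The members carried the label markers in both libraries. *Cd3e*, a chain of the T cell receptor complex, was found in 90.2% of members in C-ON and 94.6% in FMC_new, *Cd4* in 64.7% and 73.8%, and *Cd40lg* in 69.9% and 58.4%. These genes were part of the rule and are given as a description. *Il7r*, the interleukin 7 receptor, was not part of it and was found in 58.6% of members in C-ON and 49.6% in FMC_new. Among oligodendrocytes of the same libraries, which should lack these genes, *Il7r* was found in 0.456% and 1.29%, although these cells were deeper (median 7724 and 7273 UMIs, against 3431.5 and 3241 UMIs in the members). Just inside the rule, 33 members in C-ON and 48 in FMC_new held exactly 2 CD3 UMIs, and 13 and 60 cells with 1 such UMI fell just outside it. *Icos* was found in 63.6% and 56.3% of the former and in 46.2% and 43.3% of the latter.

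The libraries stood apart in free RNA. The growth hormone gene *Gh* was found in every member of FMC_new at 7818 CPM (UMIs of a gene per 1000000 UMIs summed over a class) and in no member of C-ON, and oligodendrocytes held 5623 CPM and 0 CPM. The antibody joining chain gene *Jchain* was found in 45.1% of members in C-ON and 97.7% in FMC_new. Shares of cells were therefore also computed after each cell was thinned to 1000 UMIs, and set beside those of oligodendrocytes. No barcode was shared between the members of the 2 libraries. No doublets were removed, and 44 members in C-ON (16.5%) and 183 in FMC_new (20.5%) held 2 or more UMIs of B cell, myeloid, neutrophil or oligodendrocyte markers.

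Of 10 genes of naive and central memory cells, 6 were found in at least 10% of members in C-ON and 7 in FMC_new. *Ccr7*, a lymph node homing receptor, was found in 5.64% and 12.5% of members. *Tcf7*, which encodes a transcription factor of memory and follicular cells, was found in 37.2% and 39.9%. After thinning, the share of *Tcf7* was 14.3% and 18.4% in members and 0.0529% and 0.423% in oligodendrocytes.

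Type 1 helper genes were widespread. All 9 genes of the type 1 list were found in at least 10% of members in each library, beside 3 of 10 type 17 and 5 of 9 follicular genes, and the median share over the list was 40.2% in C-ON and 35.1% in FMC_new. *Cxcr3*, the receptor that guides type 1 cells into inflamed tissue, was found in 49.2% and 52.9% of members, and *Stat4*, which carries the interleukin 12 signal, in 57.5% and 60.7%. *Tbx21* was found in 30.1% and 23.3%. *Ifng*, encoding interferon gamma, was found in 107 members of C-ON (40.2%, 34.3 to 46.4) and 224 of FMC_new (25.1%, 22.2 to 28.0). The libraries differed here by more than counting error, but with 1 library on each side this difference cannot be tested. Thinned shares of *Ifng* were 17.4% and 11.6% in members and 0.0353% and 0.127% in oligodendrocytes. At least 1 of *Ifng*, *Tbx21* and *Cxcr3* was found in 75.9% of members in C-ON and 70.9% in FMC_new.

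Type 2 and type 17 cytokine genes were found in few members. At least 1 of *Il4*, *Il5* and *Il13* was found in 4 of 266 members in C-ON (0.411% to 3.81%) and 23 of 894 in FMC_new (1.64% to 3.84%). In FMC_new *Il4* amounted to 154 UMIs in 19 members, of which 1 member held 71. *Gata3* itself was found in 18.0% and 18.7% of members, and *Ccr8*, a chemokine receptor placed in the type 2 list, in 31.6% and 39.0%. *Il17a* was found in 0 of 266 members in C-ON, which allows a share of cells with a UMI of up to 1.13% by a floor of 3 counts (1.38% by the exact interval) and says nothing of cells that express it below detection, and in 7 members of FMC_new (0.783%) with 102 UMIs, of which 1 member held 37. *Rora*, a nuclear receptor gene of the type 17 list, was found in 48.1% and 42.4%.

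Follicular helper genes were found in a larger minority. *Izumo1r*, which encodes folate receptor 4, was found in 26.7% of members in C-ON and 42.3% in FMC_new, *Slamf6* in 20.3% and 32.2%, *Il21* in 6.77% and 9.17% and *Cxcr5* in 4.51% and 8.28%. *Pdcd1*, the gene of the inhibitory receptor PD-1, was found in 31.2% and 37.6%. Members with *Pdcd1* held *Il21* in 14.5% of cases in C-ON and 13.7% in FMC_new, and members without it in 3.28% and 6.45%. *Cxcr5* and *Il21* were found together in 2 members of C-ON and 19 of FMC_new.

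Genes of tissue residency, activation and inhibition were widespread. *Cxcr6*, a chemokine receptor of tissue T cells, was found in 50.8% of members in C-ON and 40.5% in FMC_new, *Rgs1* in 60.5% and 56.7%, and *Cd69*, which holds T cells in tissue, in 56.8% and 41.1%. *Itgae*, the integrin CD103, was found in 3.38% and 9.96%. *Icos*, a costimulatory receptor, was found in 68.8% and 71.8% of members and *Tnfrsf4*, which encodes OX40, in 45.5% and 46.6%. Of the inhibitory receptors, *Ctla4* was found in 62.4% and 67.4% and *Tigit* in 42.5% and 51.5%. *Tox*, a transcription factor of chronically stimulated T cells, was found in 37.2% and 51.8%. The cell cycle genes *Mki67* or *Top2a* were found in 13.2% and 14.9% of members.

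**Figure D1:**
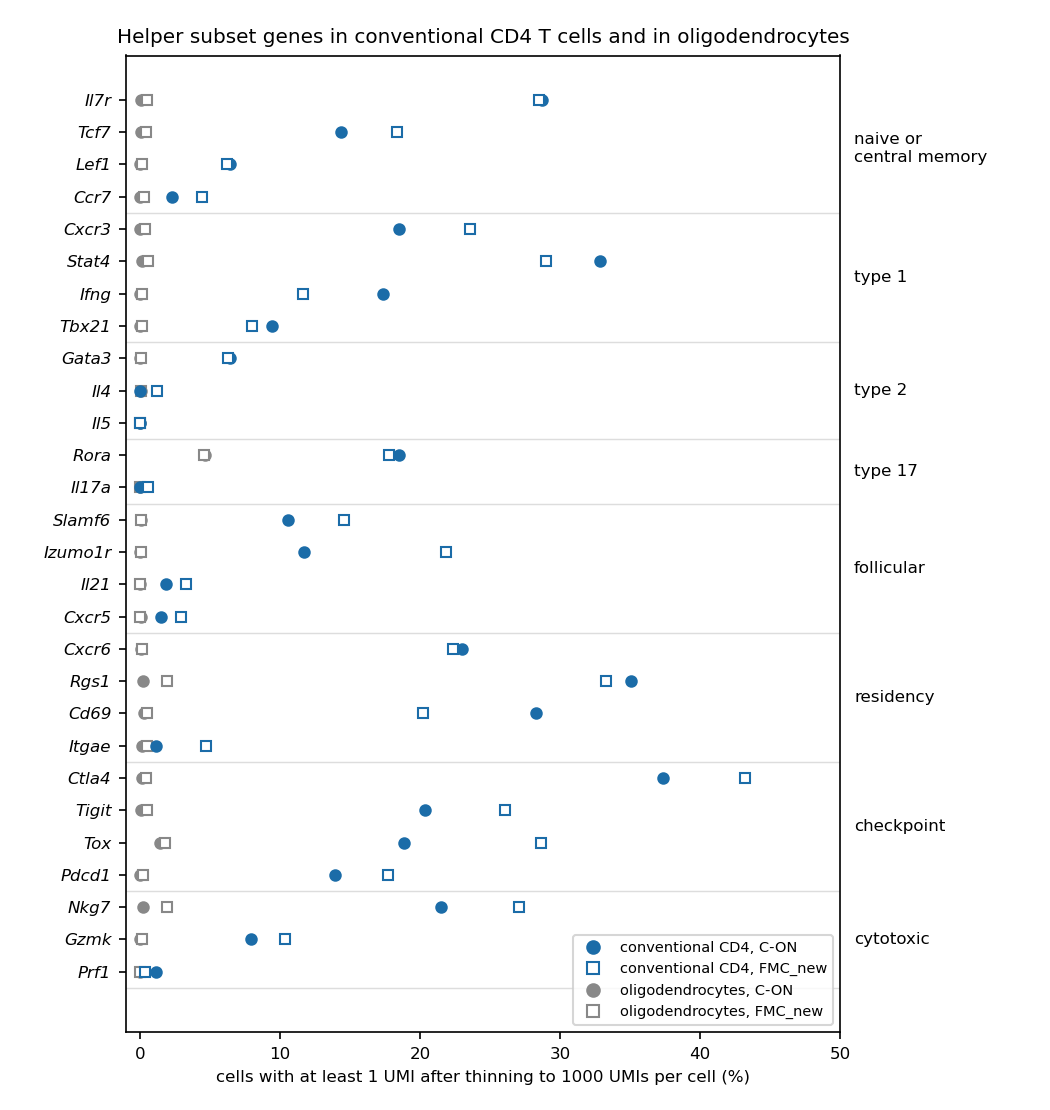
Share of cells with at least 1 UMI (%, horizontal axis) after thinning to 1000 UMIs per cell, for genes grouped by list, in conventional CD4 T cells (blue) and oligodendrocytes (grey) of C-ON (filled circles) and FMC_new (open squares). *Ctla4* lies at 37.4% and 43.2% and *Cxcr3* at 18.5% and 23.6%, while *Il5* and *Il17a* lie near the oligodendrocyte points.

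The genes *Cd4* and *Cd40lg* placed different cells among the members. In C-ON 80 members held *Cd4* UMIs alone, 94 *Cd40lg* UMIs alone and 92 both, and in FMC_new these numbers were 372, 234 and 288. *Ikzf2*, encoding the transcription factor Helios that marks regulatory T cells, reached 433 CPM in C-ON and 418 CPM in FMC_new in members with *Cd4* alone. It stood at 80.3 and 84.2 CPM in members with *Cd40lg* alone and at 56.9 and 138 CPM in members with both. The levels with *Cd4* alone were thus the highest in each library. *Cxcr6* ran the other way, with 218 and 217 CPM in members with *Cd4* alone and 439 and 356 CPM in those with *Cd40lg* alone. *Il7r* stood at 330 and 299 CPM with *Cd4* alone and at 511 and 490 CPM with *Cd40lg* alone. These are descriptions with no test, since the grouping uses genes of the rule.

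**Figure D2:**
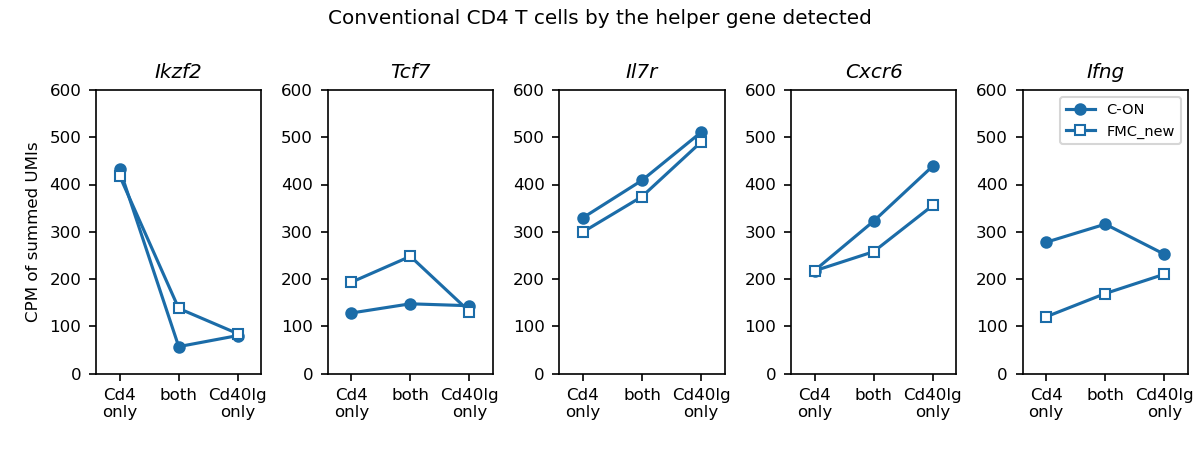
CPM of summed UMIs (vertical axis, same scale in each panel) of *Ikzf2*, *Tcf7*, *Il7r*, *Cxcr6* and *Ifng* in conventional CD4 T cells with *Cd4* UMIs only, both genes, or *Cd40lg* UMIs only, for C-ON (filled circles) and FMC_new (open squares), with lines joining the points of a library. *Ikzf2* is highest with *Cd4* alone, at 433 and 418 CPM, and *Cxcr6* with *Cd40lg* alone, at 439 and 356 CPM.

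The members were then compared with other T cells of the same nerves, defined from the same CD3 minimum. These were CD8 T cells (523 in C-ON and 1871 in FMC_new), regulatory T cells with *Foxp3* (69 and 325) and gamma-delta T cells with *Trdc* (12 and 25). CD8 and gamma-delta T cells also had to lack *Cd4* and *Cd40lg*, while regulatory T cells could hold them and members could hold *Trdc*. What these unequal exclusions add to the calls was not tested. UMIs were summed per library and class and tested with edgeR's quasi-likelihood test with the library as a block, leaving out the genes of the class rules. The p-values rest on 2 libraries and 3 residual degrees of freedom, and whether the libraries came from separate animals is not given for each. Without the block, in which differences between the libraries count as noise, 21 genes passed against CD8 T cells, 0 against regulatory T cells and 20 against gamma-delta T cells, with 585, 653 and 1136 genes at an unadjusted p under 0.05. DESeq2 with the block called 251, 191 and 180 genes.

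Against CD8 T cells, the members were lower in genes of killing and higher in some genes of T cell help and of regulatory T cells. Of 10798 genes tested, 194 were higher and 135 lower in the members at an adjusted p under 0.05 (3.05% called, 1.8% higher and 1.25% lower). Of 11 tested genes linked to regulatory T cells, 3 were higher (*Il10*, *Tnfrsf18* and *Tnfrsf4*) and none was lower. *Tnfrsf4* stood at 328 and 321 CPM in the members and at 1200 and 987 CPM in regulatory T cells. *Maf*, a transcription factor of interleukin 10, interleukin 21 and follicular programmes, stood at 208 CPM in C-ON and 222 CPM in FMC_new in the members and at 21.7 and 18.7 CPM in CD8 T cells. The 2 classes did not overlap, and the log2 fold change was 3.42 ± 0.21 (SD of the fold changes of the 2 libraries, edgeR adjusted p = 0.000103). *Tnfrsf4* was higher by 2.66 ± 0.28 (adjusted p = 0.000383), *Tnfsf11*, which encodes the cytokine RANKL, by 2.50 ± 0.20 (adjusted p = 8.17e-05) and *Areg*, encoding the growth factor amphiregulin, by 2.63 ± 0.28 (adjusted p = 0.0225). The largest fold decrease was that of *Gm44174*, with 0 and 3 UMIs in the members and 394 and 1650 in CD8 T cells. This gene lies on chromosome 6 (GRCm38, 71353035 to 71373284) between *Cd8b1* and *Cd8a*, ends 142 bases before *Cd8a* on the same strand, and therefore cannot be told apart from the genes of the rule.

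The cytotoxic list was lower in the members. Of its 9 genes tested, 8 fell and none rose, with a median log2 fold change of -2.41 over the list beside -0.01 over all genes tested. *Prf1*, the gene of the pore-forming protein perforin, stood at 4.20 and 4.85 CPM in the members and 69.0 and 76.5 CPM in CD8 T cells (log2 fold change -3.97 ± 0.03, adjusted p = 0.000132). The NK receptor gene *Klrd1* stood at 15.1 and 24.8 CPM against 360 and 476 CPM. *Nkg7*, a granule protein gene, fell by 2.63 on the log2 scale (adjusted p = 0.00111) but was still found in 42.9% and 45.9% of members. *Fasl*, the ninth gene, had a log2 fold change of -0.56 (adjusted p = 0.275). Of 9 genes on the list of inhibitory receptors, which also holds *Tox* and *Cd200*, 4 fell (*Pdcd1*, *Lag3*, *Havcr2* and *Cd160*) and *Btla* rose. *Ctla4* and *Tigit* had edgeR adjusted p-values of 0.114 and 0.0811.

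Of the follicular helper list, 7 of 9 genes were higher than in CD8 T cells. *Il21* stood at 24.4 and 33.9 CPM in the members and 1.14 and 0.363 CPM in CD8 T cells (log2 fold change 5.59 ± 0.82, adjusted p = 0.00273), and *Cxcr5* at 12.6 and 26.8 CPM against 5.72 and 7.38 CPM (adjusted p = 0.0417). *Izumo1r* and *Slamf6* rose by 2.45 and 1.39 on the log2 scale. Against regulatory T cells, *Slamf6* and *Sostdc1* of this list rose and *Izumo1r* fell, with 129 and 226 CPM in the members and 425 and 527 CPM in regulatory T cells (adjusted p = 0.00745), and the summed level of the list was 485 and 871 CPM against 625 and 839 CPM. Against CD8 T cells, *Bcl6* and *Sh2d1a* had log2 fold changes of 0.24 and 0.15 and did not pass. Of the 10 activation and costimulation genes 6 rose, with *Icos* at 431 and 479 CPM in the members against 185 and 194 CPM, and *Tnfrsf9*, encoding 4-1BB, fell. *Il10* stood at 33.6 and 63.0 CPM against 1.53 and 3.39 CPM (adjusted p = 0.000132). Of the type 1 list, *Il12rb2* rose and *Ccl5* fell, and *Ifng* had a log2 fold change of 0.71 (adjusted p = 0.429). Of 12 immediate early and dissociation stress genes, 3 rose (*Junb*, *Nr4a1* and *Zfp36*) and none fell. Their median log2 fold change was 0.78 beside -0.01 over all genes tested. Their summed level was 7326 and 7472 CPM in the members against 3801 and 4734 CPM in CD8 T cells. Their part in the other calls was not tested.

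**Figure D3:**
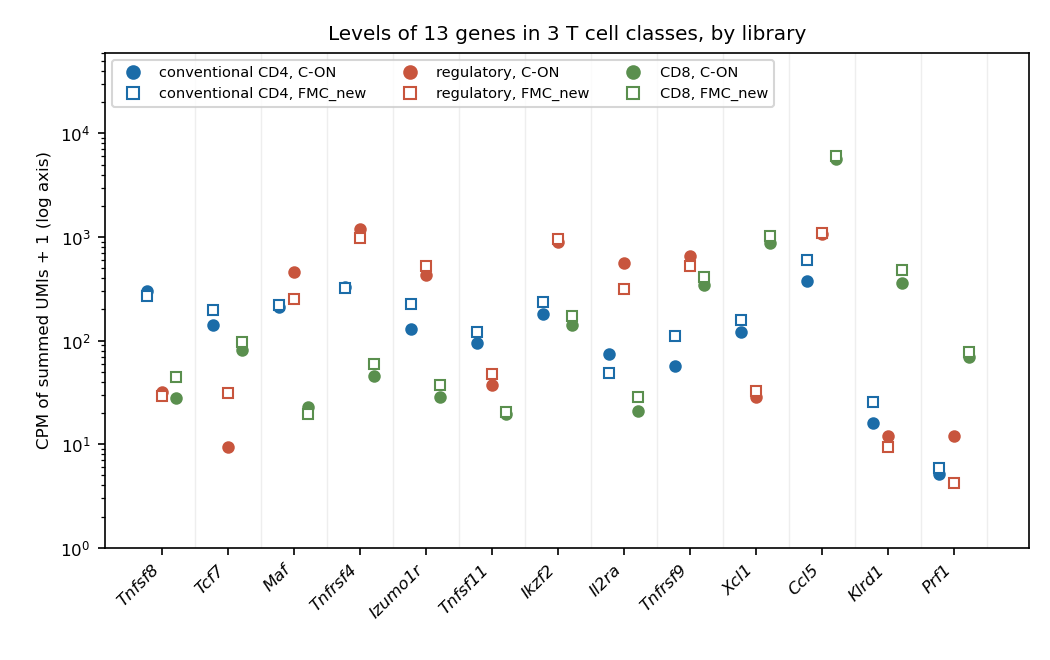
CPM of summed UMIs plus 1 (vertical axis, log scale) of named genes in conventional CD4 T cells (blue), regulatory T cells (red) and CD8 T cells (green), for C-ON (filled circles) and FMC_new (open squares). *Tnfsf8* is highest in conventional CD4 T cells (302 and 268 CPM), *Ikzf2* in regulatory T cells and *Ccl5* in CD8 T cells (5647 and 6082 CPM).

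Chemokine and cytokine genes through which T cells address myeloid cells divided between the classes. Of 13 such genes, 4 were higher in the members than in CD8 T cells (*Tnfsf8*, *Tnfsf11*, *Tnf* and *Lta*) and 4 were lower (*Ccl3*, *Ccl4*, *Ccl5* and *Xcl1*). *Ccl5*, whose protein attracts myeloid and T cells, stood at 374 CPM in C-ON and 602 CPM in FMC_new in the members and at 5647 and 6082 CPM in CD8 T cells (log2 fold change -3.57 ± 0.42, adjusted p = 0.00144). It was nevertheless found in 36.5% and 44.0% of members, and in 22.3% and 26.8% after thinning, beside 0.829% and 6.04% of thinned oligodendrocytes. *Ccl4* was found in 8 members of C-ON (3.01%) with 181 UMIs, 164 of them in 1 member, and in 89 members of FMC_new (9.96%) with 390 UMIs, 124 of them in 1 member. *Xcl1*, a chemokine for dendritic cells, was lower than in CD8 T cells (119 and 156 CPM against 878 and 1027 CPM) and higher than in regulatory T cells (27.8 and 31.9 CPM). *Ltb*, encoding lymphotoxin beta, was the most widespread of the list in the members (79.3% and 77.3%) and did not pass in any of the 3 comparisons.

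*Tnfsf8*, which encodes the CD30 ligand, was the gene of this list that passed against all 3 classes. It stood at 302 CPM in C-ON (86 members with 360 UMIs) and 268 CPM in FMC_new (294 members with 1051 UMIs). CD8 T cells held 27.1 and 43.5 CPM and regulatory T cells 30.6 and 28.0 CPM, so no class overlapped with the members. The log2 fold change was 2.99 ± 0.59 against CD8 T cells (adjusted p = 0.000213) and 3.36 ± 0.04 against regulatory T cells (adjusted p = 0.00115). In gamma-delta T cells 1 UMI was counted over both libraries.

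The sequences before the start sites of *Tnfsf8* and *Ifng* are shown because both cytokine genes were called higher in the members than in regulatory T cells. They come from RefSeq (GRCm38.p6) and run from 250 bases before the start, on the strand of the gene. For *Tnfsf8* the window at chr4:63861348-63861534 (minus strand) ends 64 bases before the start, where annotated exons begin, and for *Ifng* the window is chr10:118440796-118441045 (plus strand). Capitals mark the NFAT core GGAAA, the motif of a factor activated by T cell receptor signalling, searched on both strands.
Tnfsf8: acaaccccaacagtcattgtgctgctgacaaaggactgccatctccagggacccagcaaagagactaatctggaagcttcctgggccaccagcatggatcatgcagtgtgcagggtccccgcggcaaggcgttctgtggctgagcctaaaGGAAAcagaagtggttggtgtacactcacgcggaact
Ifng: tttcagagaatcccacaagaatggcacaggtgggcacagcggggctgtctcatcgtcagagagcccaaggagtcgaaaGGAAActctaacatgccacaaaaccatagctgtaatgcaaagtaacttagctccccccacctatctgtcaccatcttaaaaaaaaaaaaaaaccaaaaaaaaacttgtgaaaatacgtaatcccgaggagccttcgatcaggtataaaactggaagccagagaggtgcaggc
Each window held the core once, 100 to 96 bases before the start of *Tnfsf8* and 172 to 168 bases before that of *Ifng*. The core occurs in 46.5% of 32807 promoters over the length of the *Tnfsf8* window and in 55.6% over that of *Ifng*. Neither window held the AP-1 motif TGANTCA, the T-box half-site TCACACC or the TCF core CTTTGA on either strand, which occur in 6.8%, 3.3% and 13.8% of promoters over 250 bases. The NFAT core was thus the only motif searched for that either window held.

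Against regulatory T cells, the members were higher in several cytokine genes and lower in genes of the regulatory programme. Here 98 genes were higher and 56 lower (1.43% called, 0.908% higher and 0.519% lower). *Tcf7* stood at 140 CPM in C-ON and 198 CPM in FMC_new in the members and 8.34 and 30.0 CPM in regulatory T cells (log2 fold change 2.93 ± 0.89, adjusted p = 0.00115). *Cxcr6* stood at 324 and 266 CPM against 44.4 and 80.8 CPM (adjusted p = 0.00284) and *Fasl*, whose protein triggers cell death through Fas, at 157 and 105 CPM against 27.8 and 22.8 CPM (adjusted p = 0.00248). Of the type 1 list, 3 of 9 genes rose, namely *Ifng* (286 and 160 CPM against 100.02 and 41.1 CPM, adjusted p = 0.0406), *Il12rb2* and *Stat4*, and none passed as lower. The summed level of this list was nevertheless lower in the members, at 1980 and 1911 CPM against 2178 and 2178 CPM. *Ccl5* and *Hopx* had log2 fold changes of -1.11 and -0.98 (edgeR adjusted p = 0.297 and 0.0598). *Tnfsf8*, *Tnf*, *Lta*, *Tnfsf11* and *Xcl1* rose and *Ccl4* fell among the 13 genes that address myeloid cells. Of the 10 residency genes, *Cxcr6* and *Itga1* rose and *Itgae* fell, the last from 200.04 and 248 CPM in regulatory T cells to 11.8 and 55.4 CPM in the members (adjusted p = 0.00456). The integrin gene *Itgb1* rose by 2.05 ± 0.60 on the log2 scale, and *Il2*, the growth factor of T cells, was counted at 15.1 and 30.9 CPM against 2.78 and 1.30 CPM (adjusted p = 0.0236).

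Of the list of genes linked to regulatory T cells, 11 were tested, 8 were lower in the members and none was higher, with a median log2 fold change of -1.56 beside 0.01 over all genes tested. *Ikzf2* stood at 180 CPM in C-ON and 234 CPM in FMC_new in the members and 886 and 947 CPM in regulatory T cells (log2 fold change -2.13 ± 0.20, adjusted p = 0.00126). *Il2ra*, which encodes CD25, stood at 73.9 and 48.0 CPM against 564 and 317 CPM. *Ctla4*, *Tigit*, *Tnfrsf18*, *Tnfrsf4*, *Capg* and *Ikzf4* also fell, and *Il10* had a log2 fold change of -0.31 (adjusted p = 0.758). The granzyme gene *Gzmb* had the largest decrease among the genes named by rule, with 29.4 and 16.3 CPM in the members and 470 and 123 CPM in regulatory T cells (adjusted p = 0.00324). When members with a UMI of *Ikzf2* or *Il2ra* were left out, 724 members remained and 257 genes passed, 147 of them among the 154. Both genes stayed in that fit, with their direction set by the selection. The refit is therefore no check on them, nor on genes found in the same cells. Haemoglobin genes moved with the main comparison: *Hba-a1*, *Hba-a2* and *Hbb-bt* were called lower in the members, and the summed CPM of the 4 red cell genes was 28.6 and 1480 in the members and 52.8 and 9686 in regulatory T cells. In C-ON these 3 genes held at most 5 UMIs in either class, so the calls rest on FMC_new. Their part in the other results was not tested.

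Against gamma-delta T cells, 76 genes were higher and 58 lower (1.24% called, 0.704% higher and 0.537% lower), with 12 and 25 gamma-delta cells and a median log2 fold change of 0.20 over all genes tested. The split was 64 higher and 116 lower with DESeq2, and 114 and 30 after thinning. *Cd5*, a receptor that dampens T cell receptor signals, stood at 254 CPM in C-ON and 329 CPM in FMC_new in the members and 20.7 and 7.26 CPM in gamma-delta T cells (adjusted p = 0.000836). Of the type 17 list, 5 of 8 genes tested were lower in the members, among them *Il17a*, *Il1r1*, *Il23r* and *Tmem176b*, and none was higher. *Il23r*, the interleukin 23 receptor, stood at 19.3 and 4.59 CPM against 186 and 225 CPM (adjusted p = 0.0107). *Cd163l1*, a marker of interleukin 17 producing gamma-delta cells, held 1 UMI in each library of the members and 48 and 84 UMIs in gamma-delta T cells. *Mki67* was called higher, and no UMI of it was counted in gamma-delta T cells, so its fold change depends on the prior count. Pituitary genes moved with this comparison: *Prl* was called lower in the members (971 against 30235 CPM in FMC_new, none in C-ON, adjusted p = 0.000147), and *Pomc* and *Gh* were called higher, *Gh* in the opposite direction with DESeq2. *Cga* and *Prl* were also called lower against CD8 T cells, and *Pomc* higher against regulatory T cells. Their part in the other results was not tested.

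When the members were clustered on their own, without the genes of the rule and the antigen receptor genes, they fell into 10 clusters of 22 to 257 members. High, for a gene of a cluster, means present in 20% or more of that cluster's members at a CPM of 1.5 or more times the mean over clusters. The genes that lead a cluster were used to make it and are given as a description. Cluster 1 (257 members) was led by *Ccl5* and *Isg15*, with *Klf2*, *Klf3* and *Gzmk* among its first 10 genes. Cluster 7 (241 members) was led by genes that include *Lta*, *Tbc1d4*, *Slamf6*, *Sh2d1a* and *Cd200*. There 6 of 9 follicular helper genes were high, *Il21* was found in 20.7% of members against 0.389% in cluster 1, *Tnfsf8* reached 689 CPM, and *Cxcr6* was found in 11.2%. Cluster 5 (154 members) was led by *Furin*, *Krt83*, *Lgals3* and *Cxcr6*. *Cxcr6* was found in 83.8% and *Ifng* in 50.6% of its members, and 6 of 10 residency genes were high, as many as in cluster 4. *Il17a* reached 182 CPM in cluster 5, but this level rests on few cells. Over all clusters, *Il17a* or *Il17f* was found in 8 members of FMC_new and 0 of C-ON. Of 12 immediate early and dissociation stress genes, 6 were high in cluster 5 (*Jun*, *Junb*, *Jund*, *Nr4a1*, *Ier2* and *Zfp36*), as many as in cluster 9. Their part in the makeup of cluster 5 was not tested.

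Cluster 4 (186 members) was led by *Hbb-bs*, *Il10*, *Neb* and *Ikzf2*. Although its members held no *Foxp3* UMI by rule, 9 of 12 genes linked to regulatory T cells were high there. Just outside the rule, 16 cells in C-ON and 83 in FMC_new met it except for exactly 1 *Foxp3* UMI. *Ikzf2* was found in 87.5% and 86.7% of these cells. Whether cluster 4 holds regulatory T cells whose *Foxp3* went undetected was not tested. *Ikzf2* was found in 62.4% of its members at 844 CPM, and *Il10* in 32.8%. Cluster 3 (107 members) was led by *Sipa1l1*, *Itgb1* and *Slc9a9*. In it 7 of 9 type 1 and 5 of 10 naive or memory genes were high, and the nuclear RNA *Malat1* stood at 10772 CPM, against 4065 to 6558 CPM in clusters 1, 4, 5 and 7. Cluster 8 (34 members) held all 8 cell cycle genes as high, and cluster 10 (22 members) was led by the NK receptor genes *Klrc1*, *Klrk1* and *Klrd1*, with *Klrd1* in 54.5% of its members.

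The remaining clusters 2, 6 and 9, with 159 members in all, were led by genes of other cell types. Cluster 2 (49 members) was led by the oligodendrocyte genes *Trf*, *Mag* and *Cldn11* at a median of 8866 UMIs. Cluster 6 (61 members) was led by immunoglobulin genes at 13513 UMIs. Cluster 9 (49 members) was led by *Meg3*, *Mt1* and *Nnat* with *Pomc* among its first 10 genes at 8239 UMIs. All 6 listed genes of glioma cells, among them *Pdgfra* and *Neu4*, were also high in cluster 9. Their summed level was 1427 CPM there and at most 29.0 CPM in any other cluster. Doublet markers were held by every member of cluster 2, and by 82.0% and 20.4% of clusters 6 and 9. These markers include no glioma or pituitary gene, so the share for cluster 9 does not count such cells. Without these clusters 1001 members remained, and the share with *Ifng* was 43.1% in C-ON and 25.4% in FMC_new, with *Cxcr6* 51.7% and 41.4%, and with *Il7r* 59.5% and 50.8%. The makeup by cluster differed between the libraries, with cluster 5 holding 22.6% of members in C-ON and 10.5% in FMC_new, and cluster 7 holding 40 of 266 and 201 of 894. With 1 library on each side this was not tested.

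**Figure D4:**
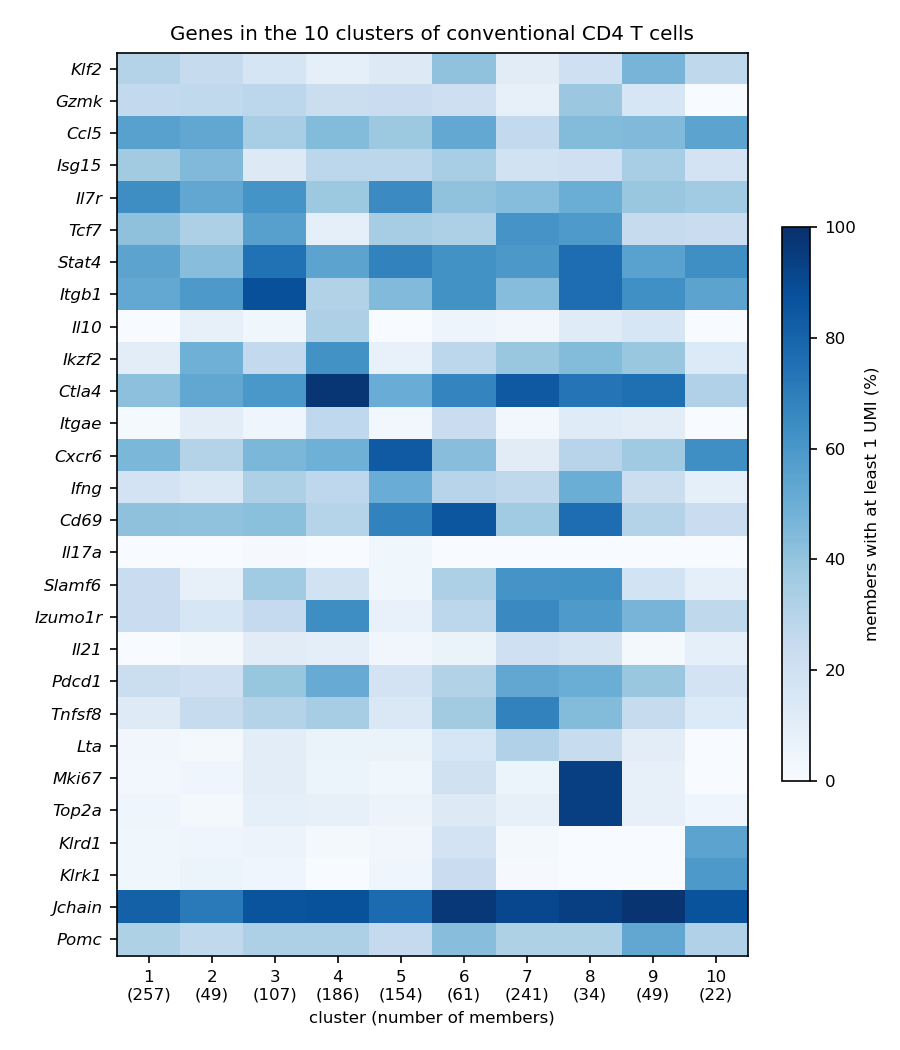
Share of conventional CD4 T cells with at least 1 UMI (%, colour scale) of selected genes (rows) in each of 10 clusters (columns, with the number of members). *Cxcr6* is darkest in cluster 5 (83.8%), *Il10* and *Ikzf2* in cluster 4 (32.8% and 62.4%), and *Mki67* and *Top2a* in cluster 8.

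T cell receptor genes were spread over many V segments. UMIs of a beta chain V gene (*Trbv*) were found in 87.2% of members in C-ON and 87.4% in FMC_new. The most frequent was *Trbv13-1*, with 12.0% and 12.8% of all *Trbv* UMIs in the members. In CD8 T cells the first place was held by *Trbv16*, with 34.8% and 18.6%. Gamma chain V genes were found in 12.8% and 4.36% of members and in 44.9% and 35.7% of CD8 T cells, with *Trgv2* the most frequent in each. Paired receptor sequencing was not analysed here.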

How the data were processed

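The authors aligned reads of 10x 5′ libraries to mm10 and deposited raw UMI counts per gene and barcode, made with Cell Ranger 7.2.0 according to the file headers, with no normalization. The counts were used as deposited. Cells were kept by the limits of the study, and classes were set by UMIs of marker genes. The members and gene lists were chosen with earlier results of these data known. Levels are CPM of summed UMIs (exact Poisson intervals) and shares have exact Clopper-Pearson 95% intervals. Depth was 973 to 18792 UMIs per member in C-ON and 717 to 19689 in FMC_new. Comparisons used edgeR 4.0.16 (TMM, filterByExpr, quasi-likelihood test, library as block, Benjamini-Hochberg adjustment over 10798 genes), with DESeq2 1.42.0 as an alternative. The fit was tested on simulated data. Clusters came from scanpy 1.11.5 (2000 variable genes, 20 components, 15 neighbours, Leiden resolution 0.6). Named genes were examples from 32 lists, leading genes of clusters, frequent V genes, and for each comparison the 10 largest called folds per direction with the same sign in both libraries and at least 50 CPM in the higher class in both libraries, without antigen receptor and pituitary hormone genes. All alternatives except leaving out the clusters led by other cell types were planned. The classes of a library come from the same suspension. A few genes are not reported here.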

Additional observations from a re-analysis of the deposited data

Results flagged for a closer look

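Some cells outside the comparisons held UMIs of genes found in the members. Barcodes that met the marker rule but lay outside the limits on genes, UMIs or mitochondrial share numbered 14 in C-ON and 38 in FMC_new, with a median of 21951.5 and 21251 UMIs. In them *Icos* was found in 85.7% and 65.8%, and *Il7r* in 71.4% and 44.7%, but their levels were below those of the members, with *Icos* at 162 and 117 CPM against 431 and 479 CPM and *Il7r* at 116 and 74.6 CPM against 414 and 373 CPM. Cells with 2 or more CD3 UMIs but no UMI of *Cd4*, *Cd40lg*, *Foxp3*, *Cd8a*, *Cd8b1* or *Trdc* numbered 144 in C-ON and 718 in FMC_new, at a median of 2560 and 2431.5 UMIs. *Icos* was found in 44.4% and 41.5% of these cells, *Ikzf2* in 37.5% and 34.1%, and *Ccl5* stood at 1144 and 1101 CPM, which lies between the levels of the members and those of CD8 T cells in each library. *Ifng* stood at 104 and 62.3 CPM against 286 and 160 CPM in the members, and *Tcf7* at 47.7 and 96.8 CPM against 140 and 198 CPM. They were counted in no class.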

How the results depend on the processing

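The number of members was 1160, with 724 when *Ikzf2* and *Il2ra* also had to be absent, and 266 to 894 when either library was left out. Against regulatory T cells 154 genes were called, with 532 without a filter on low counts, 0 with no replicate block, 338 with only the 2 classes in the fit, 257 without *Ikzf2* or *Il2ra*, 407 without cells holding doublet markers and 246 after thinning. Against CD8 T cells 329 became 736 without the filter, 21 with no replicate block, 736 with 2 classes and 557 without doublet markers, and against gamma-delta T cells 134 became 416, 20 with no replicate block, and 237 without doublet markers. The cause of these shifts was not tested. Clusters numbered 16 at a resolution of 1.0. The replicate block is the library, whose classes come from the same suspension. The 170 results followed here are called genes that were named or listed, each counted once per comparison. Over their 1506 refits, 1270 kept direction and call and 235 kept the direction only. The 1 that reversed was *Gh* against gamma-delta T cells (-1.15 with DESeq2). Refits without *Ikzf2* or *Il2ra* are included, although the selection set the direction of both genes against regulatory T cells. With either library left out, log2 fold changes against regulatory T cells ran from -2.63 to 2.55 for *Hbb-bt* and from -0.076 to 1.58 for *Pomc*, both reversed in C-ON alone. Fits of single libraries give folds with no test. The gamma-delta comparison rests on 12 and 25 cells.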

Other observations

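Some genes lower in the members than in regulatory T cells are neighbours. *Neb*, which encodes the muscle protein nebulin, and *Arl5a*, a small GTPase gene, lie on the minus strand of chromosome 2 (GRCm38, 52136647 to 52378474 and 52397951 to 52424901), 19476 bases apart. *Neb* stood at 15.1 CPM in C-ON and 23.5 CPM in FMC_new in the members against 131 and 166 CPM in regulatory T cells (edgeR adjusted p = 0.000655), and *Arl5a* at 78.1 and 86.8 CPM against 461 and 372 CPM (adjusted p = 0.00115). Both are among the first 10 genes of cluster 4. *Rln3*, a relaxin peptide gene, stood at 14.3 and 18.6 CPM against 161 and 179 CPM (adjusted p = 0.000761). *Spp1*, the gene of the secreted protein osteopontin, was counted at 78 and 359 UMIs in the members and 0 and 12 in regulatory T cells (adjusted p = 0.027).

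The 8 genes on a list of midkine receptors include *Itga4* (60.5% and 61.7% of members) and *Ncl* (67.7% and 59.8%). In each library 4 of the 8 were found in at least 10% of members, and the median share over the list was 7.33% and 9.40%. After thinning, 7 of the 8 in C-ON and 5 in FMC_new lay above their share in oligodendrocytes. Of the 7 tested, *Itgb1* was higher against regulatory T cells (adjusted p = 0.00401) and *Itga4* against gamma-delta T cells (edgeR adjusted p = 0.0477). None passed against CD8 T cells, where the fit called 3.05% of all genes and 1140 genes had an unadjusted p under 0.05.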
